A study of Homo sapiens with 6 samples.

Results

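XK, XKR8 and the VPS13 genes VPS13A, VPS13B, VPS13C and VPS13D were followed through the knockdown of PRMT5, an arginine methyltransferase, in VCaP cells, an established human prostate cancer cell line. Their probe sets were chosen by gene symbol: all those to which the platform annotation gives exactly 1 of the 6 symbols, which were 21 of the 54675 probe sets on the array, for 6 of the 19775 genes with such a probe set. XK and XKR8 had 1 probe set each, VPS13A had 6, VPS13B 4, VPS13C 4 and VPS13D 5. XK was the starting point because its averaged difference from the control was the highest of all kept probe sets in these data, and the other 5 genes were taken because they are known relatives or partners of XK. The values of XK against the control are therefore a description, with no test.

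The cells carried 1 of 3 hairpins: PRMT5 shRNA 1, PRMT5 shRNA 2, or the control hairpin labelled NTC shRNA. The labels give PRMT5 expression as low with both PRMT5 hairpins and as high with NTC shRNA. Each hairpin was measured on 2 arrays of total RNA. Doxycycline was given for 3 days at 100 ng/ml in all groups, NTC shRNA too, and thus the drug is common to all groups and no uninduced culture was compared. The labels do not say whether the 2 arrays of a hairpin came from separate cultures or whether the lines were pools or clones, and p-values therefore reflect just the spread among these arrays, which may be technical.

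XK and XKR8 belong to one family of multi-pass membrane proteins. XK carries the Kx blood group antigen, is linked to the Kell glycoprotein on red cells and binds VPS13A at contacts between the endoplasmic reticulum and the plasma membrane. XKR8 is a scramblase that moves phosphatidylserine to the outer leaflet once caspases have cut it. The VPS13 proteins are long, groove-shaped proteins that bridge 2 membranes and let lipids pass between them. Loss of XK causes McLeod syndrome, loss of VPS13A causes chorea-acanthocytosis, and both join a movement disorder with misshapen red cells.

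The labels were first checked on PRMT5 itself. The PRMT5 probe set 1564520_s_at read 135.6 and 133.8 with PRMT5 shRNA 1, 291.2 and 321.0 with PRMT5 shRNA 2, and 809.8 and 880.5 with NTC shRNA. The units here and below are the deposited MAS5 intensities on a linear scale. PRMT5 thus stood at 15.9% of its NTC shRNA mean with PRMT5 shRNA 1 and at 36.2% with PRMT5 shRNA 2, and the other PRMT5 probe sets gave like shares. The 7 prostate markers tested all lay far above the array medians. In the averaged comparison 4 were higher, KLK3 (the gene of prostate-specific antigen), KLK2, KRT8 and KRT18, and 2 were lower, ERG and HOXB13. Of all genes, 15.0% were higher and 16.3% lower. KLK3 and KRT8 passed with each hairpin. KLK2, KRT18, ERG and HOXB13 passed with PRMT5 shRNA 1 and not with PRMT5 shRNA 2 (adjusted p by limma 0.121, 0.0829, 0.892 and 0.445). KLK3 averaged 2626 with PRMT5 shRNA 1, 2570 with PRMT5 shRNA 2 and 1178 with NTC shRNA, and HOXB13 averaged 511 with PRMT5 shRNA 1, 668 with PRMT5 shRNA 2 and 712 with NTC shRNA. In bulk RNA of this kind, a change in the share of cells that express a gene and a change in RNA per cell cannot be told apart.

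XK was low in control cells and many times higher with either PRMT5 hairpin. Its probe set 206698_at read 748.5 and 679.1 with PRMT5 shRNA 1, 891.5 and 859.6 with PRMT5 shRNA 2, and 58.9 and 54.1 with NTC shRNA. All 4 knockdown arrays lay far above both NTC shRNA arrays, and the lowest of them, 679.1, was many times the highest control value, 58.9. The mean was 714 ± 49.1 with PRMT5 shRNA 1, 876 ± 22.6 with PRMT5 shRNA 2 and 56.5 ± 3.39 with NTC shRNA (SD, n = 2 each). The means were 12.6 times the NTC shRNA mean with PRMT5 shRNA 1 and 15.5 times with PRMT5 shRNA 2.

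For comparison with other probe sets, intensities were put on the log2(intensity + 16) scale, on which the change of dim probe sets is understated. XK differed from NTC shRNA by 3.33 ± 0.08 with PRMT5 shRNA 1 and by 3.62 ± 0.08 with PRMT5 shRNA 2, and by 3.48 ± 0.07 as the average of both hairpins (log2 difference ± SE of the fit). Its averaged difference ranked 1 of the 28644 probe sets kept after a filter on dim ones, and the next in rank was BASP1 202391_at at 3.38. XK ranked 4 with PRMT5 shRNA 1 alone and 1 with PRMT5 shRNA 2 alone. The size depended on the constant added before the logarithm: it was 3.78 with 1 and 2.83 with 64 in its place.

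The order of the XK level was PRMT5 shRNA 2, then PRMT5 shRNA 1, then NTC shRNA. The difference between the PRMT5 hairpins played no part in choosing XK and could be tested. XK was 0.29 ± 0.08 higher with PRMT5 shRNA 2 than with PRMT5 shRNA 1 (log2 difference ± SE, 95% interval 0.12 to 0.46), with an adjusted p of 0.0209 by limma. The arrays of the PRMT5 hairpins did not overlap and the difference stayed positive with each array left out, but the call rested on single arrays: without PRMT5 shRNA 1 replicate 2 the difference was 0.22 with an adjusted p of 0.169, and without PRMT5 shRNA 2 replicate 1 it was 0.26 with an adjusted p of 0.0757. PRMT5 itself was 1.09 ± 0.08 higher with PRMT5 shRNA 2 than with PRMT5 shRNA 1 on the same scale.

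**Figure D1:**
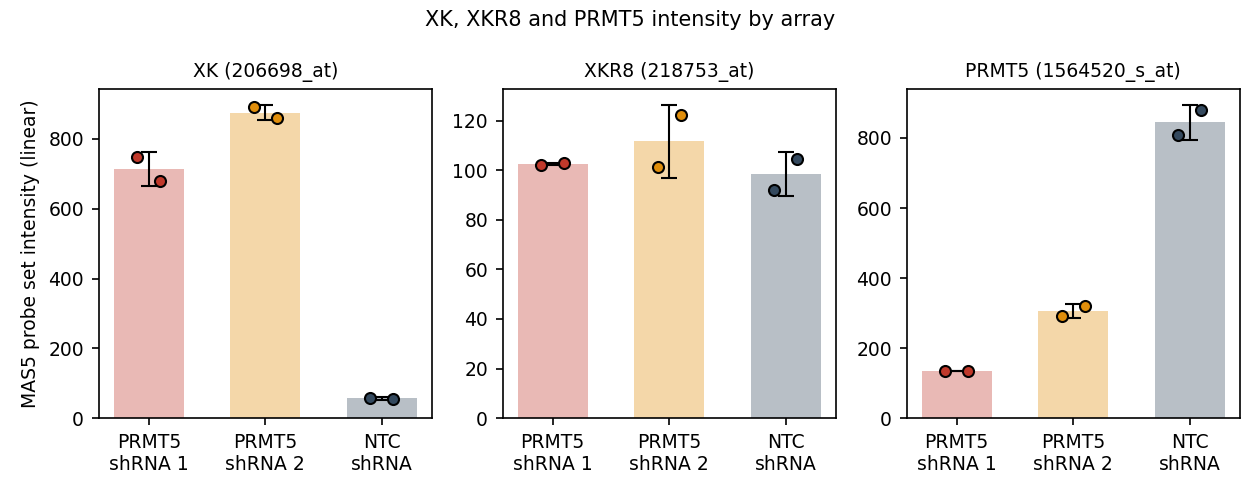
MAS5 intensity (linear axis from 0) of XK 206698_at, XKR8 218753_at and PRMT5 1564520_s_at with PRMT5 shRNA 1, PRMT5 shRNA 2 and NTC shRNA. Bars are means, error bars SD over 2 arrays and points single arrays: XK read 679.1 or more on every knockdown array and 58.9 or less on the NTC shRNA arrays, whereas the XKR8 points of the 3 groups overlapped.

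XKR8, the apoptotic scramblase of the same family, did not pass the test in any comparison. XKR8 218753_at read 102.2 and 102.8 with PRMT5 shRNA 1, 101.2 and 122.1 with PRMT5 shRNA 2, and 92.1 and 104.7 with NTC shRNA. The groups overlapped, and the 122.1 of 1 PRMT5 shRNA 2 array stood above the rest. Its averaged log2 difference was 0.10 ± 0.09 (SE) with a 95% interval of -0.10 to 0.31 and an adjusted p of 0.439 by limma, and it ran from 0.025 to 0.184 with single arrays left out. The interval does not reach a doubling or a halving, but the test does not show that the XKR8 level was equal between hairpins.

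The VPS13 genes showed no shared direction. Of the 20 probe sets other than XK, 16 passed the filter on dim probe sets, XKR8 among them. Their averaged log2 differences ran from -0.34 to 0.39, 8 positive and 8 negative, with a median of 0.00035 beside -0.01 for all kept probe sets. The median size of the difference, without its sign, was 0.14 for the 16 and 0.14 for all kept probe sets. Their group means lay between 47.2% and 190% of the NTC shRNA mean with PRMT5 shRNA 1 and between 78.0% and 126% with PRMT5 shRNA 2.

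Few of the 16 passed the test, and in no comparison was their share above that of all kept probe sets. In the averaged comparison 1 was higher, 0 were lower and 15 did not pass at an adjusted p under 0.05 by limma, which is 6.25%, beside 28.2% of all kept probe sets. At an unadjusted p under 0.05 the count was 5 of 16, beside 39.8% of all kept probe sets. With PRMT5 shRNA 1, 2 were higher and 2 lower, which is 25%, beside a background of 36.4%. Of the 2 lower, VPS13A 214852_x_at was kept only through arrays of the other hairpins, so its call is not independent of the filter. With PRMT5 shRNA 2, 0 were higher and 1 was lower, beside a background of 18.0%, and 2 passed at an unadjusted p under 0.05, beside 32.1% of all kept probe sets. All 4 knockdown arrays lay above both NTC shRNA arrays for 3 of the 16 and below both for 0, whereas 36.3% of all kept probe sets had all 4 on 1 side. Both hairpin comparisons use the same 2 NTC shRNA arrays and are not independent of each other. The averaged count was 3 without PRMT5 shRNA 2 replicate 1 and 5, of which 4 were lower, without PRMT5 shRNA 2 replicate 2. The PRMT5 shRNA 1 count of 4 was 2 without either of its own arrays. The PRMT5 shRNA 2 count of 1 was 0 without either NTC shRNA array or without PRMT5 shRNA 2 replicate 1, and 3 without PRMT5 shRNA 2 replicate 2.

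**Figure D2:**
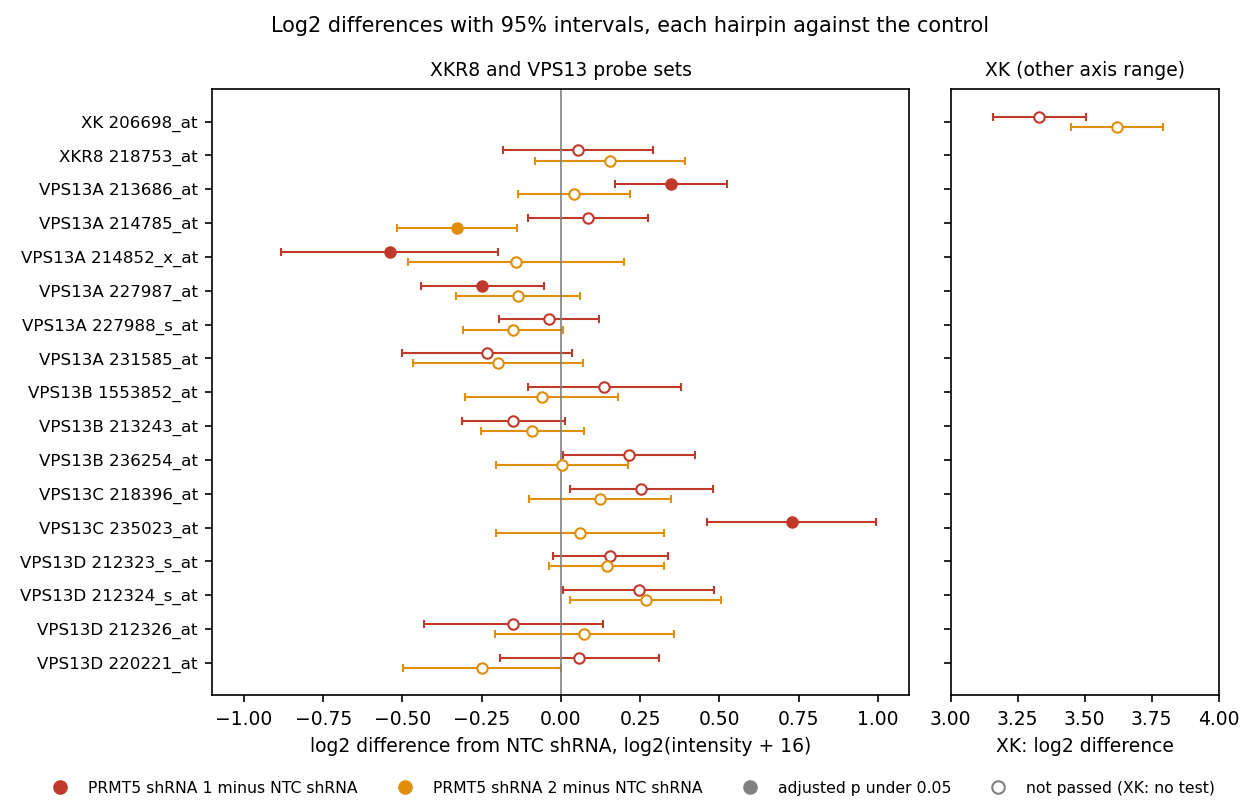
Log2(intensity + 16) differences of PRMT5 shRNA 1 and PRMT5 shRNA 2 from NTC shRNA for each kept probe set of the 6 genes, with 95% intervals. Filled points passed an adjusted p under 0.05, open points did not or, for XK, were not tested. XK, at 3.33 and 3.62, has an axis range of its own, while the other points ran from -0.54 to 0.73.

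VPS13A, the partner that XK binds, had 6 probe sets, all kept, and they disagreed in direction. In the averaged comparison 1 was positive and 5 were negative, and none passed the test. VPS13A 213686_at read 217.5 and 229.0 with PRMT5 shRNA 1, 175.7 and 179.3 with PRMT5 shRNA 2, and 172.6 and 171.2 with NTC shRNA. Both PRMT5 shRNA 1 arrays stood above all others, and the PRMT5 shRNA 2 arrays lay just above the controls. With PRMT5 shRNA 1 it was 0.35 ± 0.08 higher (log2 difference ± SE, adjusted p 0.0064 by limma), and with PRMT5 shRNA 2 the difference was 0.04 with an adjusted p of 0.763. Without PRMT5 shRNA 1 replicate 2, the first of these was 0.31 with an adjusted p of 0.0574.

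VPS13A 214785_at gave another pattern. It read 380.8 and 381.4 with PRMT5 shRNA 1, 260.4 and 306.8 with PRMT5 shRNA 2, and 370.1 and 347.4 with NTC shRNA. Here the PRMT5 shRNA 2 arrays were below all others. It was 0.33 ± 0.09 lower with PRMT5 shRNA 2 on the log2 scale (a difference of -0.33, adjusted p 0.0227 by limma), and with PRMT5 shRNA 1 the difference was 0.08 with an adjusted p of 0.473. The call for PRMT5 shRNA 2 was lost without either NTC shRNA array (adjusted p 0.147 without replicate 1 and 0.0573 without replicate 2) and without PRMT5 shRNA 2 replicate 1 (adjusted p 0.127).

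Another pair of VPS13A probe sets were lower with PRMT5 shRNA 1. The dim 214852_x_at read 9.6 and 12.9 with PRMT5 shRNA 1, 15.6 and 24.7 with PRMT5 shRNA 2, and 28.6 and 19.1 with NTC shRNA, close to the array medians of 14.8 to 16.4. Its PRMT5 shRNA 1 arrays were the lowest of the 6, with a log2 difference of -0.54 ± 0.16 from NTC shRNA and an adjusted p of 0.0192 by limma, which became 0.154 without NTC shRNA replicate 1 and 0.112 without PRMT5 shRNA 1 replicate 1. That difference was -1.01 with 1 and -0.22 with 64 as the added constant, and passed with both. It did not pass with no filter on dim probe sets (adjusted p 0.0619 by limma). Its PRMT5 shRNA 1 values were below every array median, so 214852_x_at was kept by the filter only through arrays of the other hairpins. Its call is therefore not independent of the filter and is no support for a fall. VPS13A 227987_at read 416.7 and 415.5 with PRMT5 shRNA 1, 409.2 and 496.6 with PRMT5 shRNA 2, and 512.8 and 481.6 with NTC shRNA. The PRMT5 shRNA 1 arrays stood below both controls, by -0.25 ± 0.09 on the log2 scale with an adjusted p of 0.0487 by limma, and this call was lost when any 1 of the 4 arrays compared was left out.

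The last pair of VPS13A probe sets did not pass in any comparison. VPS13A 227988_s_at, whose target sequence has the same accession as that of 227987_at, read between 366.8 and 435.8 over the 6 arrays. VPS13A 231585_at read 321.4 and 373.1 with PRMT5 shRNA 1, 304.4 and 413.3 with PRMT5 shRNA 2, and 423.1 and 396.7 with NTC shRNA, so the spread within PRMT5 shRNA 2 was as wide as the distance to the controls. The VPS13A probe sets thus differed in which hairpin passed and in which direction.

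VPS13B, which acts at the Golgi apparatus and whose loss causes Cohen syndrome, had 3 kept probe sets, and none passed in any comparison with NTC shRNA. The brightest, VPS13B 213243_at, read 595.9 and 625.9 with PRMT5 shRNA 1, 597.3 and 679.6 with PRMT5 shRNA 2, and 687.8 and 670.9 with NTC shRNA. The PRMT5 shRNA 1 arrays lay below both controls and the PRMT5 shRNA 2 arrays overlapped them, and the averaged log2 difference was -0.12 with an adjusted p of 0.189 by limma. VPS13B 236254_at read 88.9 and 92.9 with PRMT5 shRNA 1, 76.2 and 76.3 with PRMT5 shRNA 2, and 74.6 and 77.6 with NTC shRNA. Its PRMT5 shRNA 1 arrays were the highest, with a log2 difference of 0.21 and an adjusted p of 0.0985. The dimmer 1553852_at read between 17.5 and 24.7 over the 6 arrays.

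VPS13C, found at contacts of the endoplasmic reticulum with lysosomes and lipid droplets and linked to inherited Parkinson's disease, held the 1 probe set of the 16 that passed in the averaged comparison. VPS13C 235023_at read 83.7 and 78.9 with PRMT5 shRNA 1, 39.6 and 51.4 with PRMT5 shRNA 2, and 39.5 and 46.1 with NTC shRNA. Both PRMT5 shRNA 1 arrays stood well above the other 4 arrays, among which PRMT5 shRNA 2 and NTC shRNA overlapped. The mean was 81.3 ± 3.39 with PRMT5 shRNA 1, 45.5 ± 8.34 with PRMT5 shRNA 2 and 42.8 ± 4.67 with NTC shRNA (SD, n = 2 each), so PRMT5 shRNA 1 stood at 190% of the control mean and PRMT5 shRNA 2 at 106%.

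On the log2 scale VPS13C 235023_at was 0.73 ± 0.12 higher with PRMT5 shRNA 1 (adjusted p 0.00097 by limma) and differed by 0.06 with PRMT5 shRNA 2 (adjusted p 0.776). The first call was kept with each array left out in turn. The averaged difference of 0.39 ± 0.10, with an adjusted p of 0.0168, stood between those of the hairpins, and its call was lost without NTC shRNA replicate 1 (0.31, adjusted p 0.162) and with both PRMT5 hairpins fitted as 1 group (adjusted p 0.325). The brighter VPS13C 218396_at read 1083.1 and 1122.4 with PRMT5 shRNA 1, 913.4 and 1108.8 with PRMT5 shRNA 2, and 1022.0 and 832.7 with NTC shRNA. Its PRMT5 shRNA 2 arrays overlapped the controls, and its averaged log2 difference of 0.19 had an adjusted p of 0.139 and ran from 0.043 to 0.334 with single arrays left out.

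VPS13D, which is needed for normal mitochondria and peroxisomes and whose loss causes a spastic ataxia, had 4 kept probe sets, and none passed in any comparison with NTC shRNA. VPS13D 212323_s_at read 267.9 and 238.0 with PRMT5 shRNA 1, 252.6 and 248.3 with PRMT5 shRNA 2, and 221.4 and 228.6 with NTC shRNA. VPS13D 212324_s_at read 74.5 and 68.4 with PRMT5 shRNA 1, 66.5 and 79.6 with PRMT5 shRNA 2, and 57.3 and 58.2 with NTC shRNA. In both, every knockdown array lay above both controls, with averaged log2 differences of 0.15 (adjusted p 0.141 by limma) and 0.26 (adjusted p 0.0629). The second passed after quantile normalization (adjusted p 0.0478) and without PRMT5 shRNA 2 replicate 1 (adjusted p 0.0325). VPS13D 220221_at was lowest with PRMT5 shRNA 2, at 35.0 and 33.3, against 48.6 and 39.0 with NTC shRNA, and read 46.8 and 45.3 with PRMT5 shRNA 1. VPS13D 212326_at read between 79.4 and 120.2, with the groups overlapping.

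**Figure D3:**
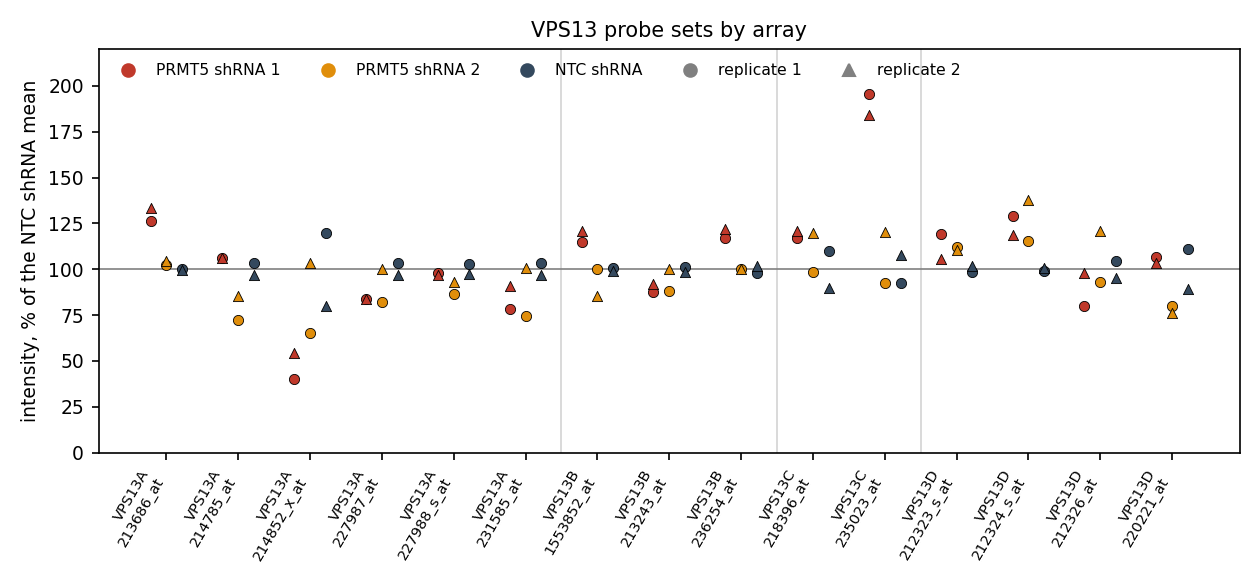
Intensity of the 15 kept VPS13 probe sets on each of the 6 arrays, as a percent of the NTC shRNA mean of the same probe set, with PRMT5 shRNA 1, PRMT5 shRNA 2 and NTC shRNA marked. VPS13C 235023_at is highest at a PRMT5 shRNA 1 mean of 190%, VPS13A 214852_x_at lowest at 47.2%, and the probe sets of VPS13A differ in direction.

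The 4 remaining probe sets were below the filter. VPS13B 220400_at read between 6.6 and 11.5 over the 6 arrays, VPS13C 220517_at between 6.3 and 9.6, VPS13C 232386_at between 3.2 and 7.4 and VPS13D 1557571_at between 1.6 and 4.5. These values are below the median of every array and were not tested. XK and XKR8 rest on 1 probe set each, so no second probe set bears on them.

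The PRMT5 hairpins differed from each other on 3 of these probe sets. In the direct comparison of PRMT5 shRNA 2 with PRMT5 shRNA 1, 0 of the 16 were higher and 3 were lower at an adjusted p under 0.05 by limma, which is 18.75%, beside 25.8% of all kept probe sets. VPS13C 235023_at averaged 45.5 with PRMT5 shRNA 2 and 81.3 with PRMT5 shRNA 1, a log2 difference of -0.67 ± 0.12 with an adjusted p of 0.0034 that was kept with each array left out. VPS13A 214785_at averaged 284 with PRMT5 shRNA 2 and 381 with PRMT5 shRNA 1, a log2 difference of -0.41 with an adjusted p of 0.0067. VPS13A 213686_at averaged 178 with PRMT5 shRNA 2 and 223 with PRMT5 shRNA 1, a log2 difference of -0.31 with an adjusted p of 0.0184, lost without either PRMT5 shRNA 1 array (adjusted p 0.0571 without replicate 1 and 0.122 without replicate 2) and without PRMT5 shRNA 2 replicate 1 (0.0523). XK was the other way round, higher with PRMT5 shRNA 2.

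XK lies on the X chromosome, and the genes next to it in the RefSeq order of GRCh38.p14 were read for their own values. Of the 3 nearest protein-coding genes on either side, 5 were tested, and 4 of the 5 were higher in the averaged comparison. In chromosome order they are FAM47C, PRRG1 and LANCL3 before XK and CYBB, DYNLT3 and SYTL5 after it. Across all genes, with the brightest probe set standing for each, 15.0% were higher and 16.3% were lower. SYTL5, which binds Rab proteins in vesicle transport, read 437.1 and 455.2 with PRMT5 shRNA 1, 632.4 and 693.7 with PRMT5 shRNA 2, and 185.5 and 188.3 with NTC shRNA on probe set 242093_at. As for XK, PRMT5 shRNA 2 was highest, PRMT5 shRNA 1 next and NTC shRNA lowest, with no overlap, and the averaged log2 difference was 1.46 ± 0.06 with an adjusted p of 4.7e-08 by limma. SYTL5 was 0.55 higher on the log2 scale with PRMT5 shRNA 2 than with PRMT5 shRNA 1 (adjusted p 0.0008).

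The other neighbours moved less. DYNLT3, a dynein light chain, read 1935.4 and 1977.1 with PRMT5 shRNA 1, 2223.8 and 2069.3 with PRMT5 shRNA 2, and 1639.6 and 1629.6 with NTC shRNA, an averaged log2 difference of 0.32 ± 0.05 (adjusted p 0.0006 by limma). PRRG1, a membrane protein with a Gla domain, was 0.37 ± 0.07 higher (adjusted p 0.0031). CYBB, the catalytic subunit of the phagocyte oxidase, was 0.41 ± 0.09 higher on probe set 233538_s_at (adjusted p 0.0054), and its adjusted p was 0.0582 without NTC shRNA replicate 2 and 0.206 with both PRMT5 hairpins as 1 group. That CYBB probe set read 68.2 and 68.7 with PRMT5 shRNA 1, 42.7 and 42.3 with PRMT5 shRNA 2, and 38.0 and 35.8 with NTC shRNA, so it was highest with PRMT5 shRNA 1. CYBB passed with PRMT5 shRNA 1 (0.68, adjusted p 0.0005) and not with PRMT5 shRNA 2 (0.15, adjusted p 0.358). LANCL3 ran the other way, with an averaged difference of -0.28 and an adjusted p of 0.0514, which passed under 9 of the alternatives tried. LANCL3 was lower with PRMT5 shRNA 1 (-0.46, adjusted p 0.0086), did not pass with PRMT5 shRNA 2 (-0.10, adjusted p 0.581), and was 0.36 higher with PRMT5 shRNA 2 than with PRMT5 shRNA 1 (adjusted p 0.0377). FAM47C was below the filter.

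**Figure D4:**
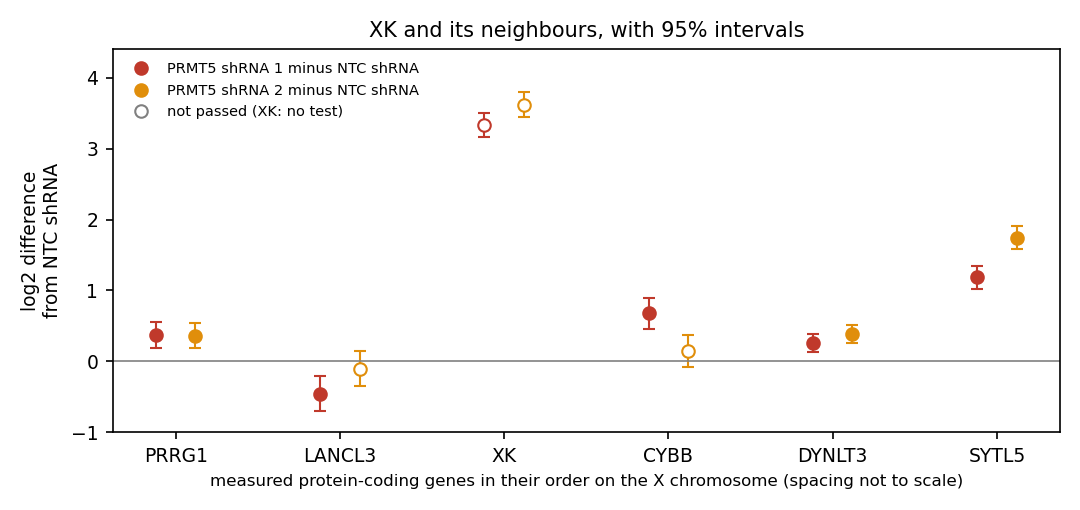
Log2(intensity + 16) differences of PRMT5 shRNA 1 and PRMT5 shRNA 2 from NTC shRNA, with 95% intervals, for XK and its tested neighbours in chromosome order (spacing not to scale). Filled points passed an adjusted p under 0.05, open points did not or, for XK, were not tested; XK stands at 3.33 and 3.62 and SYTL5, the farthest gene after it, at 1.19 and 1.74.

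The genes whose pattern over the 6 arrays was most like that of XK were sought among the 252 other genes with an averaged log2 difference of at least 1 in size. The highest Pearson correlations with XK over the 6 arrays were 0.9995 for RGS4, a regulator of G protein signalling, 0.9993 for A1CF, an RNA editing cofactor, 0.9990 for MIOS-DT, 0.9988 for LIX1 and 0.9985 for VSTM2A. With NTC shRNA, A1CF read 9.4 and 9.7 and VSTM2A read 13.3 and 14.0, below every array median. These 2 genes were kept by the filter only through knockdown arrays, so their place here is not independent of the filter. RGS4 averaged 1209 with PRMT5 shRNA 1, 1377 with PRMT5 shRNA 2 and 301 with NTC shRNA. The lowest were -0.9988 for SMAD7, an inhibitor of TGF-beta signalling, -0.9988 for HDAC9, a histone deacetylase, and -0.995 for TNC, the matrix protein tenascin C. HDAC9 averaged 25.8 with PRMT5 shRNA 1, 22.0 with PRMT5 shRNA 2 and 287 with NTC shRNA. Such values were common in this set of genes, all points of which share the same 6 arrays in 3 groups: 45 of the 252 had a correlation over 0.99 and 152 had one over 0.9.

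Other genes of lipid transfer and scrambling were read from lists, with 1 probe set standing for each gene and the median of all 12413 genes at -0.01, of which 15.0% were higher and 16.3% lower in the averaged comparison. The XKR paralogs gave no call against NTC shRNA. Of 7 XKR genes listed, 4 were found on the array and XKR6 and XKR7 were tested, of which 0 passed at an adjusted or an unadjusted p under 0.05, with averaged log2 differences of 0.12 (adjusted p 0.396 by limma) and -0.09 (adjusted p 0.576). XKR7 was 0.45 higher with PRMT5 shRNA 2 than with PRMT5 shRNA 1 (adjusted p 0.0198). XKR4 and XKRX were below the filter at no more than 5.2 on any array. Of the XKR8 subunits, BSG, or basigin, was 0.35 ± 0.10 higher in the averaged comparison (adjusted p 0.0258). BSG read 425.1 and 425.0 with PRMT5 shRNA 1, 307.5 and 224.2 with PRMT5 shRNA 2, and 248.6 and 270.4 with NTC shRNA. Both PRMT5 shRNA 1 arrays were above all others while PRMT5 shRNA 2 overlapped the controls, and the averaged call was lost without any 1 of the NTC shRNA or PRMT5 shRNA 1 arrays. NPTN, or neuroplastin, differed by 0.05 and did not pass.

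The list of other lipid scramblases was taken by family and also holds relatives that need not be scramblases. Of its 12 tested genes 3 were higher, 1 was lower and 8 did not pass, with a median averaged log2 difference of 0.14. Of all genes, 15.0% were higher and 16.3% lower. ANO7, a prostate-enriched anoctamin, read 43.7 and 47.9 with PRMT5 shRNA 1, 39.4 and 36.1 with PRMT5 shRNA 2, and 20.3 and 11.0 with NTC shRNA. Every knockdown array of ANO7 was above both controls, with an averaged difference of 0.88 ± 0.12 (adjusted p 0.00034 by limma). PLSCR4 was 0.70 higher, at intensities of 13.5 to 21.2 in the knockdown arrays, near the array medians, and 4.0 to 5.4 with NTC shRNA. PLSCR4 was kept by the filter on dim probe sets only through knockdown arrays, so its call is not independent of the filter. PLSCR1 was 0.55 ± 0.10 higher on average (adjusted p 0.0019), but did not pass with PRMT5 shRNA 1 alone (adjusted p 0.052). The PRMT5 shRNA 1 comparison passed under some alternatives, among them 1 as the added constant (adjusted p 0.0467) and the mean over the probe sets of a gene (adjusted p 0.0141). The averaged PLSCR1 call was lost with both PRMT5 hairpins as 1 group (adjusted p 0.0929). The 1 lower gene, named here after its values were seen, was ANO6, the calcium-activated scramblase of platelets, at -0.36 on average (adjusted p 0.0134). ANO6 averaged 126 with PRMT5 shRNA 1, 188 with PRMT5 shRNA 2 and 201 with NTC shRNA, and it passed with PRMT5 shRNA 1 (-0.61, adjusted p 0.0011) and not with PRMT5 shRNA 2 (-0.10, adjusted p 0.554). The difference of PRMT5 shRNA 2 from PRMT5 shRNA 1 was 0.51 (adjusted p 0.0059). The averaged call was lost without either NTC shRNA array, with adjusted p 0.0691 without replicate 1 and 0.0911 without replicate 2.

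The flippase list held P4-type ATPases, which return phosphatidylserine and other lipids to the inner leaflet, and their subunit genes TMEM30A and TMEM30B. It was mixed: 4 of 13 tested genes were higher, 2 were lower and 7 did not pass, with a median of -0.09, beside 15.0% higher and 16.3% lower of all genes. ATP8B4 read 645.2 and 620.0 with PRMT5 shRNA 1, 507.6 and 505.1 with PRMT5 shRNA 2, and 155.6 and 188.1 with NTC shRNA. Its knockdown arrays were all far above the controls, with an averaged difference of 1.64 ± 0.08 (adjusted p 6.4e-08 by limma). ATP8A2 read 558.1 and 685.5 with PRMT5 shRNA 1, 736.3 and 654.9 with PRMT5 shRNA 2, and 368.0 and 394.3 with NTC shRNA, a difference of 0.76 ± 0.08 (adjusted p 6.6e-05). ATP8B3 was 0.51 ± 0.09 higher (adjusted p 0.0017). Without NTC shRNA replicate 1, 3 flippase genes passed in place of 6.

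Of the 6 other bridge-like lipid transfer proteins, which share the groove-shaped fold of the VPS13 proteins, all were tested: 0 were higher, 1 was lower and 5 did not pass, with a median of 0.01, beside the same shares of all genes. The lower gene was ATG2B, which feeds lipids to the growing autophagosome. ATG2B read 462.8 and 464.9 with PRMT5 shRNA 1, 535.5 and 571.3 with PRMT5 shRNA 2, and 678.7 and 687.0 with NTC shRNA. All knockdown arrays were below both controls, the PRMT5 shRNA 1 arrays lowest, and the averaged difference was -0.42 ± 0.06 (adjusted p 0.0003 by limma). Without PRMT5 shRNA 1 replicate 1, 2 genes of this list passed.

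Of the proteins that hold VPS13 proteins at membranes and of related tethers, 1 of 13 tested genes was higher, 2 were lower and 10 did not pass, with a median of 0.01, beside 15.0% higher and 16.3% lower of all genes. The 3 were ESYT1 at 0.22 (adjusted p 0.0258 by limma), RHOT2 at -0.30 (adjusted p 0.0166) and MOSPD2 at -0.23 (adjusted p 0.0435), and 1 gene passed without NTC shRNA replicate 1 or without either PRMT5 shRNA 1 array, and 0 without NTC shRNA replicate 2. ESYT1, RHOT2 and MOSPD2 passed with PRMT5 shRNA 1 and not with PRMT5 shRNA 2 (adjusted p 0.123, 0.352 and 0.726 by limma). The shuttle lipid transfer proteins had 6 of 27 higher, 4 lower and 17 not passed, with a median of -0.03, near the 15.0% and 16.3% of all genes. These 10 calls became 3 without NTC shRNA replicate 1 and 4 without NTC shRNA replicate 2 or without either PRMT5 shRNA 1 array. PDZD8, a lipid transfer protein of endoplasmic reticulum contacts, read 422.8 and 413.6 with PRMT5 shRNA 1, 392.2 and 418.9 with PRMT5 shRNA 2, and 615.5 and 571.2 with NTC shRNA. The knockdown arrays were all below the controls, with an averaged difference of -0.51 ± 0.06 (adjusted p 0.00014). OSBPL8, an oxysterol-binding protein relative that carries phosphatidylserine, was 0.29 ± 0.05 higher (adjusted p 0.00093).

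**Figure D5:**
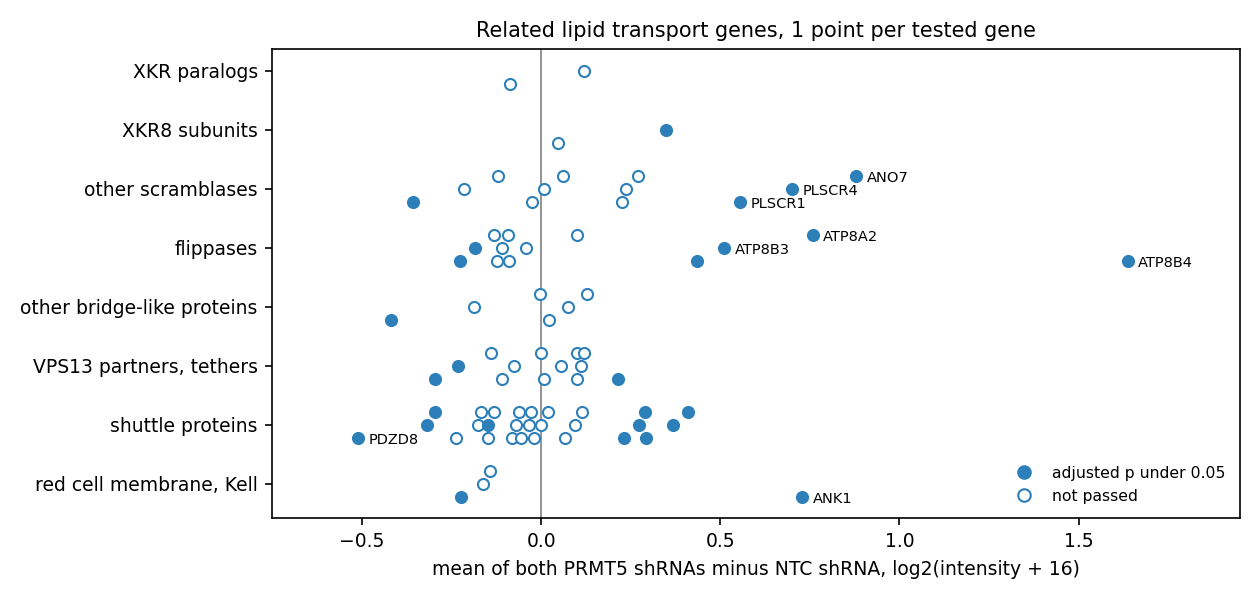
Averaged log2(intensity + 16) difference of the PRMT5 hairpins from NTC shRNA for each tested gene of 8 lists of lipid scrambling, lipid transfer and red cell membrane genes, 1 point a gene, filled where it passed an adjusted p under 0.05. ATP8B4 at 1.64 is the highest point and PDZD8 at -0.51 is among the low ones, and XK, at 3.48, is on no list.

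The red cell membrane genes were mostly dim in these cells. KEL, the Kell glycoprotein gene, was below the filter at 0.6 and 0.7 with PRMT5 shRNA 1, 3.0 and 1.8 with PRMT5 shRNA 2, and 0.4 and 1.8 with NTC shRNA. Of 14 red cell membrane and Kell genes 4 were tested, of which 1 was higher, 1 was lower and 2 did not pass. Of all genes, 15.0% were higher and 16.3% lower. The lower one, ERMAP, passed with PRMT5 shRNA 1 (adjusted p 0.0124 by limma) and not with PRMT5 shRNA 2 (adjusted p 0.341). The higher one was ANK1, the spectrin anchor, with an averaged difference of 0.73 ± 0.10. It read 19.7 and 22.5 with PRMT5 shRNA 1, 36.0 and 33.4 with PRMT5 shRNA 2, and 9.8 and 10.5 with NTC shRNA. The NTC shRNA values were below every array median, so ANK1 was kept by the filter only through its knockdown arrays. Its call is therefore not independent of the filter and is no support for a rise. ERMAP was lower by -0.22 (adjusted p 0.0412), a call lost without any 1 of the NTC shRNA or PRMT5 shRNA 1 arrays or without PRMT5 shRNA 2 replicate 1.

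Markers of other cell types were read beside XK, with 15.0% of all genes higher and 16.3% lower in the averaged comparison. Of 9 erythroid markers 1 was tested, EPOR, with an averaged log2 difference of 0.07 that did not pass, and the beta globin gene HBB read at most 11.0. The summed erythroid intensity was 211.3 to 215.3 with PRMT5 shRNA 1, 231.3 to 243.4 with PRMT5 shRNA 2, and 210.9 to 223.5 with NTC shRNA. This sum covers the 5 markers with a probe set of their own, and most of it is EPOR. EPOR alone read 189.4 to 192.3 with PRMT5 shRNA 1, 214.4 to 228.5 with PRMT5 shRNA 2, and 188.1 to 201.6 with NTC shRNA. Muscle and neuron markers had 1 of 5 tested genes higher, ACTN2 at 0.52, and sums of 2713.2 to 2767.8 with PRMT5 shRNA 1, 2718 to 2897.7 with PRMT5 shRNA 2, and 2802.3 to 2833.8 with NTC shRNA. Most of these sums is TUBB3, at 2523.2 to 2594.0 with PRMT5 shRNA 1, 2448.3 to 2618.2 with PRMT5 shRNA 2, and 2575.3 to 2593.1 with NTC shRNA. The stromal, endothelial and immune markers summed to 1019.6 to 1083.4 with PRMT5 shRNA 1, 739 to 830.2 with PRMT5 shRNA 2, and 500 to 538 with NTC shRNA, and 1 of their 2 tested genes was higher. That gene was LUM, at 942.9 and 1020.0 with PRMT5 shRNA 1, 666.6 and 742.2 with PRMT5 shRNA 2, and 468.5 and 428.3 with NTC shRNA. Without LUM the other 9 summed to 63.4 to 76.7 with PRMT5 shRNA 1, 72.4 to 88 with PRMT5 shRNA 2, and 69.5 to 71.7 with NTC shRNA. No marker of these lists was exactly 0 on all arrays, and the part of these genes in the XK result was not tested.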

How the data were processed

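Total RNA of 6 VCaP samples was measured on 1-colour arrays, 2 per hairpin. The authors deposited linear intensities, 1 per probe set, which MAS5 made, per the submitters' processing notes; its version and detection calls are not given in those notes. The deposited columns share a mean of about 150.0 after trimming 2% at each end, so no further scaling was applied. The build behind the values is not given, so coordinates are not printed; the order of genes beside XK is that of RefSeq GRCh38.p14. Array medians were 14.8 to 16.4, and the number of arrays limits the precision.

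Of the probe sets, 62 controls were left out, 41091 had 1 symbol, 1801 several, and 11721 none or no listing; 41043 matched RefSeq GRCh38.p14 by Entrez ID. A probe set was kept if it reached its array's median in at least 2 of 6 arrays, which left 28644. Values were fitted as log2(intensity + 16) in R 4.3.3 by limma 3.58.1, with all 6 arrays, 1 coefficient per hairpin and moderated by eBayes with an intensity trend. Tests are two-sided, with Benjamini-Hochberg adjustment over all kept probe sets and a threshold of 0.05; the procedure was tested on simulated data. For lists, a gene's brightest kept probe set with 1 symbol was used. From each list up to 3 genes were named: those called on average and with both hairpins with the same sign, by size, then those called on average only; for likeness to XK, the 5 highest and 3 lowest correlations; and the 3 nearest protein-coding genes on either side of XK. The members, lists and rules were chosen with earlier results of these data known. Some listed genes are not reported here. Alternatives covered the added constant, filter, normalization, probe set choice, trend, grouping, replicate block and each array left out.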

Additional observations from a re-analysis of the deposited data

Results flagged for a closer look

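The 4 results below were taken up because the PRMT5 hairpins differed from each other in a direct test (limma, adjusted over all kept probe sets). XK 206698_at averaged 876 with PRMT5 shRNA 2 and 714 with PRMT5 shRNA 1, a log2 difference of 0.29 with an adjusted p of 0.0209, and its adjusted p ran up to 0.169 with single arrays left out. VPS13C 235023_at averaged 45.5 with PRMT5 shRNA 2 and 81.3 with PRMT5 shRNA 1, a log2 difference of -0.67. VPS13A 214785_at averaged 284 with PRMT5 shRNA 2 and 381 with PRMT5 shRNA 1, a log2 difference of -0.41. VPS13A 213686_at averaged 178 with PRMT5 shRNA 2 and 223 with PRMT5 shRNA 1, a log2 difference of -0.31. The PRMT5 level differed between the same arrays, at 36.2% of NTC shRNA with PRMT5 shRNA 2 and 15.9% with PRMT5 shRNA 1, and its part in these differences was not tested.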

How the results depend on the processing

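Single values for the 6 genes were compared under the alternatives: 329 kept their direction and side of the threshold, 23 lost the call and 9 gained one. For XK against NTC shRNA, which was not tested, a value counted as kept where its log2 difference stayed close to the main one. The 329 include values without a call in the main fit, which had none to lose, so they do not measure how stable the calls were. The 4 that reversed in sign, of 2 VPS13D probe sets that passed under no such setting, were VPS13D 212326_at at 0.020 without NTC shRNA replicate 1, 0.025 without PRMT5 shRNA 1 replicate 1 and 0.044 without PRMT5 shRNA 2 replicate 1 (-0.12 to 0.044 over all arrays left out), and VPS13D 220221_at at 0.020 without NTC shRNA replicate 1 (-0.21 to 0.020). The added constant moved the differences of XK and VPS13A 214852_x_at. Among the probe sets other than XK, the averaged count of 1 was 3 after quantile normalization, 0 with 1 probe set a gene and 0 with both PRMT5 hairpins as 1 group, and ran from 1 to 5 with single arrays left out. The PRMT5 shRNA 1 count of 4 was 2 with no filter on dim probe sets, 1 with 1 probe set a gene and 1 with the mean over the probe sets of a gene, and ran from 2 to 6 with single arrays left out. The PRMT5 shRNA 2 count of 1 was 0 with no filter, with 1 probe set a gene, with the mean over probe sets and with no intensity trend, and ran from 0 to 3. The count of 3 between the PRMT5 hairpins was 0 with 1 probe set a gene and 1 with the mean over probe sets, and ran from 2 to 3. The XK difference between the PRMT5 hairpins ran from 0.222 to 0.359 with single arrays left out. Over all alternatives the averaged count of all probe sets, 8066, ran from 2516 to 8629. List counts ran from 0 to 0 for XKR paralogs, 0 to 1 for XKR8 subunits, 2 to 7 for scramblases and their relatives and 3 to 7 for flippases. They ran from 1 to 2 for bridge-like proteins, 0 to 4 for VPS13 partners, 2 to 10 for shuttles and 1 to 2 for red cell genes. The cause of these changes was not tested. Deviations of same-numbered arrays correlated weakly, at -0.0618 (PRMT5 shRNA 1 with NTC shRNA), -0.142 (PRMT5 shRNA 2 with NTC shRNA) and -0.000749 (PRMT5 shRNA 2 with PRMT5 shRNA 1). These values do not show whether same-numbered arrays were prepared together. With the replicate block the XK difference between the PRMT5 hairpins was 0.29 with an adjusted p of 0.0237. The block left the count of called probe sets other than XK at 1 on average and moved it to 3 with PRMT5 shRNA 1, and moved the averaged count over the array to 7355. Signal over background limits the 4 probe sets below the filter and VPS13A 214852_x_at, which lay near the array medians.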

Other observations

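Transcripts named after 2 of the VPS13 genes were measured apart from them, all below the filter. VPS13C-DT read 3.3 and 2.0 with PRMT5 shRNA 1, 0.3 and 0.5 with PRMT5 shRNA 2, and 2.5 and 2.6 with NTC shRNA on 1561424_at. VPS13A-AS1 read 10.9 and 18.4 with PRMT5 shRNA 1, 12.6 and 9.4 with PRMT5 shRNA 2, and 11.9 and 10.1 with NTC shRNA on 240767_x_at. A dim CYBB probe set, 203923_s_at, read 14.6 and 12.3 with PRMT5 shRNA 1, 19.8 and 15.2 with PRMT5 shRNA 2, and 0.9 and 1.4 with NTC shRNA, above both controls on all 4 knockdown arrays and around the array medians, and was not tested. The other dim CYBB probe sets overlapped between the knockdown and NTC shRNA arrays and were not tested either. CYBB 203922_s_at read between 6.1 and 9.4 over the 6 arrays, and 217431_x_at between 2.8 and 6.4.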
